A study of Mus musculus with 6 samples.

Results

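The collagen genes of neonatal mouse skin were taken as all genes of the array annotation whose symbol reads Col, a number, the letter a and a number. The rule used no measured value. It found 42 genes with 82 probe sets, out of 18193 genes measured, and 27 of the 42 had more than 1 probe set. Of 44 such symbols in the RefSeq table of assembly GRCm38.p6, Col6a6 and Col28a1 are not analysed here. Each gene is given by its brightest probe set.

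RNA came from whole back skin of 6 female littermates on postnatal day 2.5, on a mixed FVB/N and C57BL/6 background, with 1 array per mouse. The caNrf2 group held 3 K5cre-caNrf2 mice, whose genotype is tg/tg in the protocol and tg/g in the sample labels. The control group held 3 K5cre-wt mice, labelled tg/wt, so K5cre was shared by both groups. The titles call the groups transgene strong and wildtype strong, and the treatment label reads CaNrf2 on all 6 samples, controls included. Nrf2 is a transcription factor that switches on genes of detoxification and antioxidant defence, and caNrf2 is a constitutively active form of it. K5 stands for keratin 5, whose promoter is active in basal keratinocytes and the outer follicle, so the active protein was meant to be made in the epithelium. Where it was made was not measured here. The series title names the search for Nrf2 target genes in skin. The comparison here asks how transcripts of the collagens, many of which are made by dermal cells, where this promoter is not known to be active, differed between both genotypes.

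Collagens are secreted proteins in which 3 chains wind into a triple helix built on repeats of glycine and further residues, rich in proline and hydroxyproline. Fibroblasts of the dermis secrete the fibrillar types I, III and V, which assemble into the fibres that give skin its tensile strength. Types IV, VII, XV, XVII and XVIII belong to the basement membrane zone, which joins epidermis to dermis and surrounds vessels and follicles, and keratinocytes contribute to several of them. Types II, IX, X and XI are best known from cartilage. Types VIII and X are short-chain collagens that form open networks, and type VIII is known from the corneal Descemet membrane and from vessel walls.

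Most collagens were not called between caNrf2 and control skin, and 3 were lower in caNrf2 skin. Col8a1 and Col8a2, which code for both chains of type VIII collagen, fell to 0.734 and 0.778 of the control level. Col8a2 averaged 58.5 over 6 arrays, under the background limit of 61.6 described below. The size of its fall is therefore uncertain. Col11a1, which codes for a chain of type XI collagen, fell to 0.767 of the control level. None of the 42 rose at an adjusted p under 0.05 in limma (0 higher, 3 lower, 39 not called). At an unadjusted p under 0.05 there were 2 higher (Col11a2 and Col6a5) and 6 lower (the 3 called genes, Col19a1, Col4a4 and Col25a1). These make up 19% of the collagens, against 20.4% of all genes, so this count lay near the background. Over all genes 3.66% were called, 1.39% lower and 2.26% higher, against 7.14% of the collagens called lower. The count of 3 became 1 without caNrf2 replicate 1, where Col11a1 was left, or without caNrf2 replicate 3 or control replicate 1, where Col8a1 was left. The median log2 fold change of the 42 was -0.0015, against -0.0041 for all genes. The groups did not overlap in 6 collagens with lower and 4 with higher values in caNrf2 skin, or 14.3% and 9.52% of the 42. Over all genes these shares were 13% and 12.7%, or 25.7% in either direction, so the collagens lay near the background in this respect. The 95% interval of the log2 fold change stayed within 0.25 of 0 for 25 collagens (59.5%, against 49.9% of all genes). It stayed within 0.5 of 0 for 37 (88.1%, against 95.1% of all genes), so the 2 bounds differed from all genes in opposite directions.

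**Figure D1:**
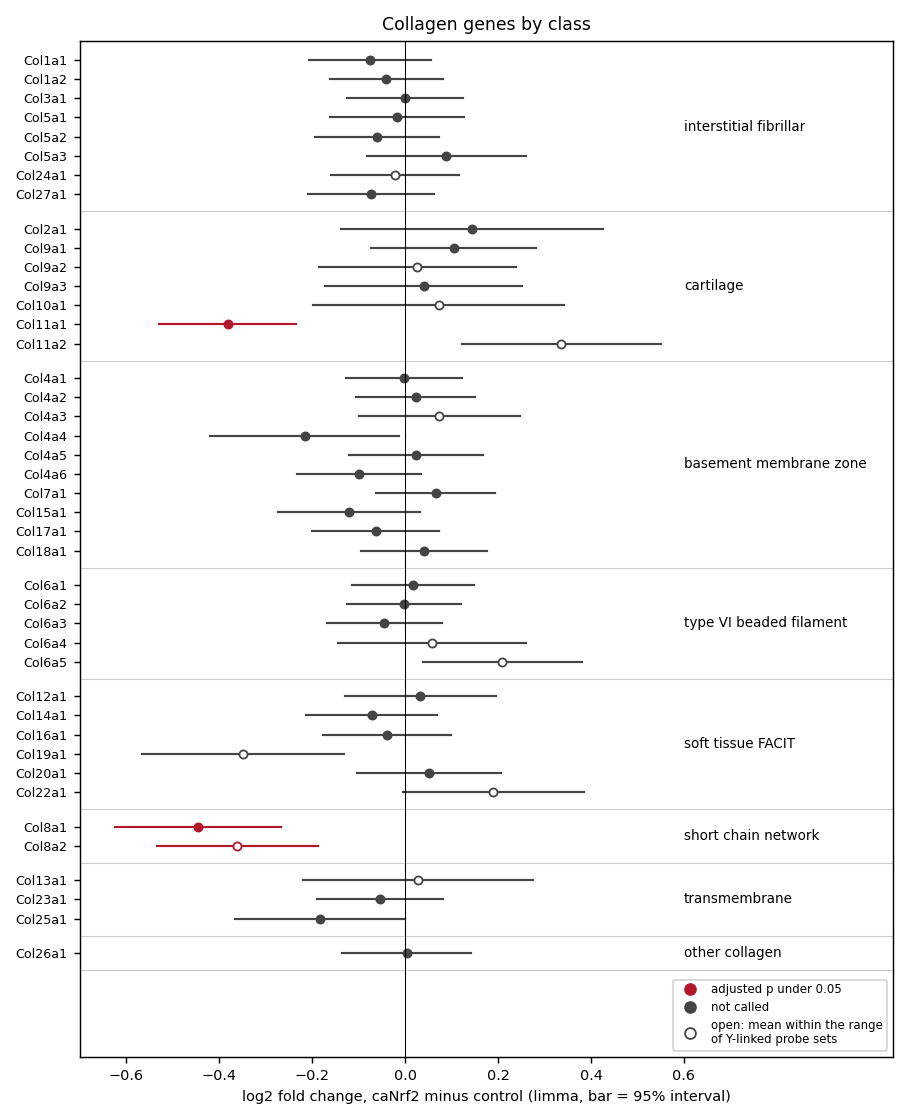
Log2 fold change of each of the 42 collagen genes (caNrf2 minus control, 3 arrays each) with its 95% interval from limma, grouped by class. Red marks the 3 genes called at an adjusted p under 0.05, and open points are genes whose mean over 6 arrays lay at or below 61.6, the highest group mean of a Y-linked probe set. Col8a1, Col8a2 and Col11a1 lie between -0.45 and -0.36, while the genes of the interstitial fibrillar class lie between -0.08 and 0.09.

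Since the mice were female, the 20 probe sets of Y-linked genes gauge the background. Their group means ran from 6.46 to 61.6, and to 46.9 for the 14 of them whose names do not mark a shared or repeated sequence. The mean of 31 collagens lay above the whole range, and that of 11 within it. Col24a1, Col9a2, Col10a1, Col11a2, Col4a3, Col6a4 and Col6a5 also lay under 46.9, and genes at such levels are given as not above the background. Nqo1, a classical Nrf2 target, read 64.3 to 72.6 on control and 1315 to 1512 on caNrf2 arrays, which bears out the labels. Pearson correlations of log2 intensity over all probe sets with a single symbol ran from 0.9946 to 0.99603 between groups and from 0.99741 to 0.99807 within them.

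Type VIII collagen was the class with the largest shift. Col8a1, coding for the alpha 1 chain, read 338, 357 and 357 on the control arrays and 250, 236 and 289 on the caNrf2 arrays. Every caNrf2 array was below every control array. Mean intensity was 351 ± 11.1 against 258 ± 27.4 (SD, n = 3), and the log2 fold change came to -0.45 ± 0.08 (SE; 95% interval -0.62 to -0.27; limma, adjusted p = 0.0154). It no longer passed when caNrf2 replicate 1 (adjusted p = 0.0542), caNrf2 replicate 2 (0.0516) or control replicate 3 (0.0643) was left out, at log2 fold changes from -0.43 to -0.38.

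A second probe set of Col8a1 separated the groups as well. It read 166, 170 and 149 in control and 124, 119 and 130 in caNrf2 skin, again with no overlap. Its log2 fold change was -0.38 ± 0.07 (SE; limma over all probe sets, adjusted p = 0.0291, where 2.24% of probe sets were called). The third, dim probe set overlapped between the groups, with control means of 43.1 ± 1.02 against 39.2 ± 5.01 (SD, n = 3) and a log2 fold change of -0.15 ± 0.09 (adjusted p = 0.415). Both means were under the 46.9 reached by Y-linked probe sets.

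Col8a2 codes for the alpha 2 chain and had 1 probe set. It read 69.6, 66.5 and 61.1 in control and 48.6, 56.0 and 49.0 in caNrf2 skin. The groups did not overlap. The means were 65.7 ± 4.32 and 51.2 ± 4.16 (SD, n = 3), and the log2 fold change was -0.36 ± 0.08 (95% interval -0.54 to -0.19; limma, adjusted p = 0.0353). These levels straddled 61.6, the top of the Y-linked range, so the size of this fall is uncertain. Col8a2 did not pass without caNrf2 replicate 1 (adjusted p = 0.108), caNrf2 replicate 3 (0.113), control replicate 1 (0.132) or control replicate 2 (0.0813), and when all probe sets were tested apart (0.0518).

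Col11a1, the third gene that fell, codes for the alpha 1 chain of type XI collagen, a fibrillar type that sets the diameter of cartilage fibrils and also mixes with type V chains in other tissues. It read 555, 504 and 524 in control and 428, 398 and 388 in caNrf2 skin, with no overlap. The means were 528 ± 25.5 and 405 ± 20.9 (SD, n = 3), for a log2 fold change of -0.38 ± 0.07 (95% interval -0.53 to -0.24; limma, adjusted p = 0.0129). Without caNrf2 replicate 3 (adjusted p = 0.0579), or without control replicate 1 (0.0614), it did not pass. The other probe set of Col11a1 read 285, 353 and 386 in control and 290, 296 and 259 in caNrf2 skin. There control replicate 1 lay among the caNrf2 arrays, and the log2 fold change of -0.27 ± 0.11 did not pass (limma over all probe sets, adjusted p = 0.226).

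**Figure D2:**
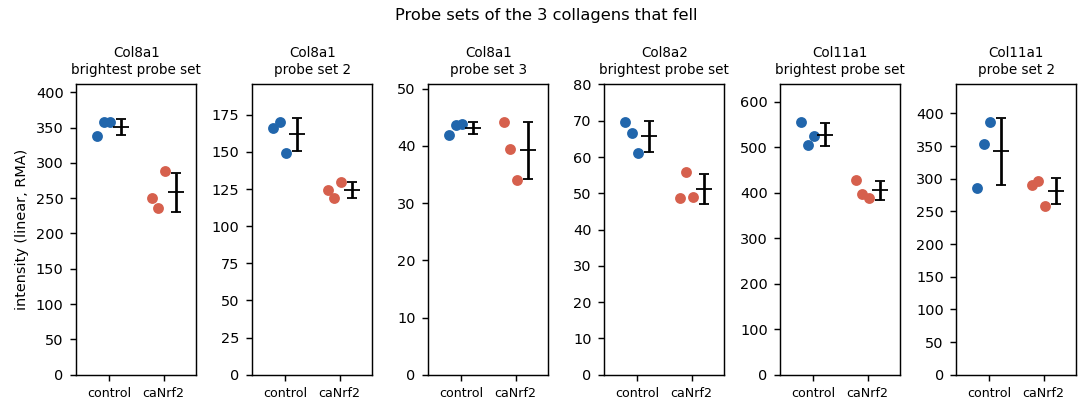
Intensity on a linear axis from 0 for every probe set of Col8a1, Col8a2 and Col11a1. Points are arrays (blue control, red caNrf2), and the bar beside them is the mean ± SD of 3 arrays. The brightest probe set of each gene and the second of Col8a1 separate the groups, while the third of Col8a1 and the second of Col11a1 overlap.

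The promoters of these 3 genes are shown because each gene passed as lower. The windows, from RefSeq on GRCm38.p6, run from 250 bases before to 50 bases after the annotated start and read 5′ to 3′ on the strand of the gene. Col8a1 lies at chr16:57754688-57754987 on the minus strand, Col8a2 at chr4:126286544-126286843 and Col11a1 at chr3:114030290-114030589, both on the plus strand. Capitals mark GC boxes (GGGCGG on either strand), letters bound by Sp1-type factors, and the CCAAT box (on either strand).
Col8a1: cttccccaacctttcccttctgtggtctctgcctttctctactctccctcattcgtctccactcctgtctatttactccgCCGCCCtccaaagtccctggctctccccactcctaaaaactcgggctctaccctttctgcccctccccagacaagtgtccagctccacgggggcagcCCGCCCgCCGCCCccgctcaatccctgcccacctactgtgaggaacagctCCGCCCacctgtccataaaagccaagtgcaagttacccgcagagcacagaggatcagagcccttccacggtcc
Col8a2: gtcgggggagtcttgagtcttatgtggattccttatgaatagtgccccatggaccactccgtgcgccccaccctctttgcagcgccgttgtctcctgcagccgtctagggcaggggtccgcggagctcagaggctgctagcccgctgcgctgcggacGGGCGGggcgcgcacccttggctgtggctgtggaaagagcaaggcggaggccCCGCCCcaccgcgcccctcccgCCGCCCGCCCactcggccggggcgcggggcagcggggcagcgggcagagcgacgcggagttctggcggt
Col11a1: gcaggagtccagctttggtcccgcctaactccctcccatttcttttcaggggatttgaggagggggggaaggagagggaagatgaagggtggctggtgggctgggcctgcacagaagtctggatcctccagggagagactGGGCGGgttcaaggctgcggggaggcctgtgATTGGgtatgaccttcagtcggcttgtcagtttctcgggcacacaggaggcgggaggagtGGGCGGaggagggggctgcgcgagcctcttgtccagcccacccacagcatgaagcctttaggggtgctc
GC boxes were matched at 4 places in the Col8a1 window, at 4 in that of Col8a2 (of which 2 overlap each other) and at 2 in that of Col11a1, which also held 1 CCAAT box. Windows were found for 33 of the 42 collagens, 36 windows in all, and 22 of these held a GC box, or 61.1%, against 35.7% of 32851 windows of the same length. A CCAAT box was in 13 of the 36, 36.1% against 37.4%, and the TATA box letters TATAAA in 5, 13.9% against 13.6%.

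The core of the antioxidant response element, the motif bound by Nrf2 with a small Maf protein, was searched as TGACNNNGC on both strands. It was in none of the 3 windows printed above, which says only that these letters are not in these windows. It was in the windows of 7 other collagens, Col4a2, Col6a2, Col6a5, Col7a1, Col9a2, Col13a1 and Col24a1, 19.4% of 36 windows against 12.4% of all. The match in Col4a2 read TGACTCTGC, 74 bases before the start, and that in Col7a1 read TGACCTTGC, 140 bases before it. None of these 7 genes passed the test, with log2 fold changes from -0.02 (Col24a1) to 0.21 (Col6a5). The AP-1 letters TGANTCA, which can lie inside an antioxidant response element, were in 1 collagen window, that of Col6a1, or 2.78%, against 7.81% of all windows.

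The interstitial fibrillar collagens, which make up the bulk of dermal fibres, were not called. Of 8 genes 0 were higher and 0 lower in limma, none had an unadjusted p under 0.05, and the median log2 fold change was -0.03. Without caNrf2 replicate 2 this median was -0.06. Col1a1, the alpha 1 chain of type I collagen, read 15427, 14697 and 14947 in control and 14509, 14584 and 13695 in caNrf2 skin. All caNrf2 arrays were below all control arrays, but by an amount within the spread of the fit, at a log2 fold change of -0.08 ± 0.06 (SE; 95% interval -0.21 to 0.06; limma, adjusted p = 0.501). That interval corresponds to 0.867 to 1.04 of the control level.

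Col1a2, the other chain of type I, read 20559, 20444 and 20864 in control and 20250, 19772 and 20120 in caNrf2 skin. The groups did not overlap here either, and the log2 fold change was -0.04 ± 0.05 (limma, adjusted p = 0.711). Col3a1, the chain of type III collagen that is abundant in young skin, read 20320, 20330 and 21290 against 20686, 20776 and 20448. Its groups overlapped, with a log2 fold change of -0.0004 ± 0.0556 and a 95% interval from -0.13 to 0.12. By mean intensity these 2 probe sets headed the list of probe sets with a single symbol, and 24 of those were brighter than that of Col1a1. The highest value on each array lay between 20444 and 21290, and whether this ceiling hides a difference was not tested.

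Dimmer probe sets of the same genes lay below that ceiling and gave no call. A second probe set of Col1a1, at 1825 ± 153 in control and 1833 ± 90.4 in caNrf2 skin (SD, n = 3), gave a log2 fold change of 0.01 ± 0.08. A second of Col1a2, at 11584 ± 410 and 11035 ± 537, gave -0.07 ± 0.07. The dimmest of Col1a2, at 245 ± 32.8 and 227 ± 16.5, gave -0.10 ± 0.10. A second of Col3a1, at 6756 ± 310 and 6532 ± 223, gave -0.05 ± 0.06. The adjusted p was at least 0.595 for each of these (limma over all probe sets).

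Type V collagen nucleates type I fibrils and limits their width. Col5a1 read 3554 ± 47.3 in control and 3517 ± 228 in caNrf2 skin, Col5a2 7595 ± 236 and 7281 ± 262, and Col5a3 1296 ± 103 and 1377 ± 85.5 (SD, n = 3). On the log2 scale these differences were -0.02, -0.06 and 0.09. All 3 overlapped between groups. Col27a1, a fibrillar collagen of developing cartilage and epithelia, was at -0.07 ± 0.06 from a control mean of 518, and Col24a1 was not above the background.

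In the basement membrane zone, 0 of 10 genes were higher and 0 lower in limma, 1 had an unadjusted p under 0.05, and the median was 0.0098. Col4a1 and Col4a2 code for the chains of the type IV network found in nearly all basement membranes. Col4a1 read 8379, 8364 and 8045 in control and 8326, 8254 and 8161 in caNrf2 skin. Col4a2 read 3825, 3741 and 3567 against 3802, 3737 and 3762. Both genes overlapped between groups, with log2 fold changes of -0.0025 ± 0.0552 and 0.02 ± 0.06 and 95% intervals from -0.13 to 0.12 and from -0.11 to 0.15. In both, control replicate 3 had the lowest value of all 6 arrays.

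These 2 genes lie head to head, with annotated starts 21 bases apart on opposite strands. Their promoter windows share 78 bases, shown because 1 stretch of DNA holds both annotated starts. It is chr8:11312777-11312854 of GRCm38.p6, given on the plus strand, that of Col4a2, with its 1 GC box in capitals. This GC box lies after the annotated start of each gene.
Col4a1 and Col4a2: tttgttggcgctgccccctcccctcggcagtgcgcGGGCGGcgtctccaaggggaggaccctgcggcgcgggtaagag
Col4a5 and Col4a6, chains of epidermal and kidney basement membranes, also start head to head, 1343 bases apart on the X chromosome. Col4a5 was at 0.02 ± 0.06 and Col4a6 at -0.10 ± 0.06 (SE), both overlapping between groups. Col4a4, the partner of Col4a3 in kidney and other special membranes, had the lowest value of the class. It read 104, 83.6 and 86.5 in control and 84.8, 75.1 and 75.3 in caNrf2 skin, a log2 fold change of -0.22 ± 0.09 (limma, adjusted p = 0.222). Its 3 probe sets lay between -0.29 and -0.19, and none passed. Col4a3 was not above the background.

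The collagens that anchor the epidermis had narrow intervals around 0. Col7a1, which keratinocytes make for the anchoring fibrils under the basement membrane, read 990, 1005 and 961 in control and 1011, 1068 and 1015 in caNrf2 skin. The groups did not overlap, by a small margin, and the log2 fold change was 0.07 ± 0.06 (95% interval -0.06 to 0.19; limma, adjusted p = 0.558). Col17a1, the transmembrane collagen of hemidesmosomes in basal keratinocytes, read 1290 ± 44.8 and 1234 ± 51.7 (SD, n = 3), a log2 fold change of -0.06 ± 0.06. Both genes are known from keratinocytes, the cells that the keratin 5 promoter targets.

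Col18a1 and Col15a1 code for heparan or chondroitin sulphate bearing collagens at the outer face of basement membranes. Col18a1 read 1340, 1360 and 1236 in control and 1347, 1348 and 1349 in caNrf2 skin, a log2 fold change of 0.04 ± 0.06. Col15a1 read 935, 872 and 816 against 802, 832 and 775, at -0.12 ± 0.07 (limma, adjusted p = 0.345). The lowest control lay between caNrf2 replicates 1 and 2, so the groups overlapped.

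The cartilage class held values of both signs around its median of 0.07, with 0 of 7 higher, 1 lower (Col11a1) and 6 not called. This median was 0.0055 without control replicate 1 and 0.13 without control replicate 2. Without caNrf2 replicate 3, Col11a2 passed as higher and Col11a1 did not pass. Col2a1, the main collagen of cartilage, read 65.1, 94.8 and 79.1 in control and 78.7, 88.3 and 94.6 in caNrf2 skin, overlapping widely at 0.14 ± 0.13. Col9a3, a chain of type IX collagen, which decorates type II fibrils, read 78.6, 95.6 and 94.7 against 87.2, 86.8 and 102, at 0.04 ± 0.09. Col9a1 lay at 0.10 ± 0.08 with overlapping groups. Col11a2, the partner chain of Col11a1 in cartilage, had a value of the opposite sign. It read 23.9, 26.1 and 22.7 in control and 33.8, 31.8 and 26.4 in caNrf2 skin, a log2 fold change of 0.34 ± 0.10 (limma, adjusted p = 0.0934). All its values were under 46.9, the level of Y-linked probe sets, and so was its call without caNrf2 replicate 3 (adjusted p = 0.0312) made at that level. Col9a2 and Col10a1 were not above the background.

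Defining markers of cartilage cells were low in these samples. Of 11 measured, 8 had a mean within the Y-linked range, among them the cartilage matrix genes Matn1, Matn3, Hapln1, Epyc and Cnmd, each under 20 in control skin. The summed level of the 11 was 819 to 881 in control and 788 to 830 in caNrf2 skin, mostly from Sox9 and Acan, which are also expressed in hair follicles. None of the 11 was called in limma, 3 having an unadjusted p under 0.05. These were Snorc (0.25) and Chad (0.17), which were higher, and Sox9 (-0.17), which was lower. The means of Snorc, 60.1 in control and 71.7 in caNrf2 skin, lay around 61.6, and those of Chad within the Y-linked range.

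Type VI collagen forms beaded filaments around cells, and its 3 main chains had overlapping groups. Col6a1 read 6225, 6036 and 6089 in control and 6339, 6327 and 5900 in caNrf2 skin, Col6a2 had means of 8815 ± 86.4 and 8796 ± 158, and Col6a3 of 8199 ± 137 and 7950 ± 174 (SD, n = 3). On the log2 scale they differed by 0.02, -0.0032 and -0.04, with 95% intervals that reached from -0.17 for Col6a3 to 0.15 for Col6a1. Col6a4 and Col6a5 were not above the background. Of the 5, none was called in limma, and Col6a5 alone had an unadjusted p under 0.05.

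Among 6 fibril-associated collagens of soft tissue, which sit on fibril surfaces, 0 were higher and 0 lower in limma, and the median was -0.0033. Col12a1 read 1456 ± 115 and 1487 ± 62.2, Col14a1 2374 ± 90.9 and 2259 ± 110, and Col16a1 928 ± 33.8 and 903 ± 36.9 (control and caNrf2 means ± SD, n = 3). All 3 overlapped between groups. Col19a1, a collagen of basement membranes in embryonic muscle and other sites, came nearest to the threshold of the genes that missed it. It read 66.7, 54.9 and 55.6 in control and 48.1, 49.8 and 41.2 in caNrf2 skin, with no overlap, at -0.35 ± 0.10 (limma, adjusted p = 0.0867). Its level was within the Y-linked range, and its other probe sets gave -0.25 and 0.13. Col22a1, known from tissue junctions such as that of muscle and tendon, read 53.0 ± 2.81 and 60.7 ± 7.16, at 0.19 ± 0.09, and Col20a1 lay at 0.05 ± 0.07. Neither passed.

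Of the 3 transmembrane collagens, none was called in limma. Col25a1, known from neurons, read 103, 90.4 and 91.4 in control and 81.6, 91.8 and 77.7 in caNrf2 skin, with caNrf2 replicate 2 among the controls. It gave opposite signs by probe set, -0.18 ± 0.08 for the brightest and 0.17 ± 0.08 for the other. Col23a1 read 273 ± 7.22 and 263 ± 11.8 (SD, n = 3), with 3 probe sets between -0.20 and 0.06. Col13a1 and Col26a1, an emilin-related gene, lay at 0.03 ± 0.11 and 0.0031 ± 0.0620. Both overlapped between the groups.

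Class medians were also taken array by array. They restate the values above, so that of the 2 type VIII genes, both without overlap, had to separate the groups. The median deviation of the type VIII genes from their control mean was -0.46, -0.40 and -0.35 on the log2 scale in caNrf2 replicates 1, 2 and 3, and between -0.04 and 0.02 in the controls. For the fibrillar class it was -0.03, -0.0092 and -0.03 in caNrf2 and between -0.03 and 0.01 in control arrays, so the groups overlapped. For the basement membrane zone it was within 0.0062 of 0 in all 3 caNrf2 arrays and ran from -0.06 to 0.04 in the controls. Over all 42 collagens it ran from -0.03 to 0.01 in caNrf2 and from -0.01 to 0.02 in control arrays. On leaving out 1 array, class medians near 0 changed sign, running from -0.014 to 0.017 for the basement membrane zone, from -0.011 to 0.050 for type VI and from -0.027 to 0.023 for the fibril-associated class.

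**Figure D3:**
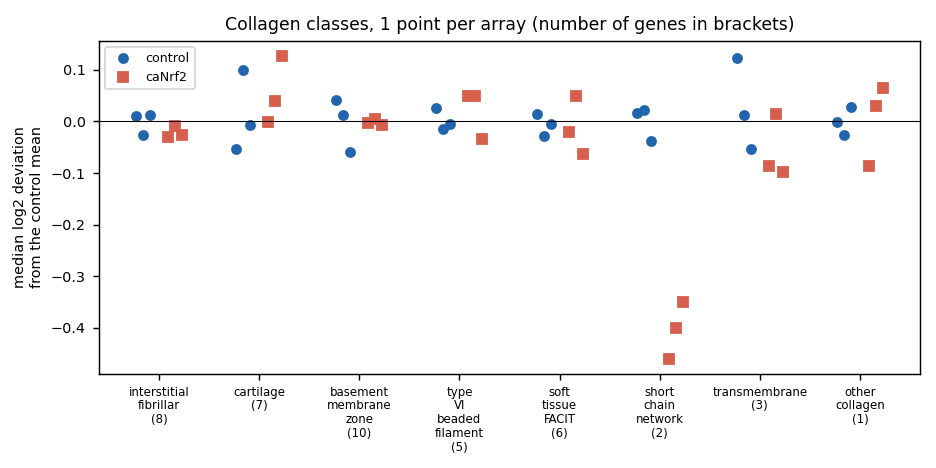
Median log2 deviation from the control mean over the genes of each collagen class, with 1 point per array (blue circles control, red squares caNrf2) and the number of genes in brackets. The 2 type VIII genes (short chain network) lie between -0.46 and -0.35 in caNrf2 skin, and the arrays of both groups overlap in the other classes.

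Genes that modify, export, bind and break down collagen were not called either. In 9 lists with 116 measured genes, 0 were higher and 0 lower in limma, and 14 (12.1%) had an unadjusted p under 0.05, against 20.4% of all genes. The median over the 116 was -0.04. In no list was a gene called, and the list medians ran from -0.06 to 0.03. With an intensity trend and robust variances 1 was higher and 3 were lower, namely Itgb4, and Timp3, Plod2 and Tnc.

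Of 15 hydroxylases, their helpers and glycosyltransferases, which prepare the chains for folding and cross-linking, Plod2, a lysyl hydroxylase of collagen telopeptides, had the smallest p. Its means were 385 in control and 316 in caNrf2 skin, at -0.29 ± 0.09 (limma, adjusted p = 0.118). Among 11 genes of chaperoning, export and propeptide removal, Serpinh1, the collagen chaperone Hsp47, had the highest log2 fold change at 0.02, and Adamts3, a propeptidase that was not above the background, the lowest at -0.20. The 4 lysyl oxidases, which cross-link fibrils, lay between -0.07 and 0.03. The 12 small leucine-rich proteoglycans, which coat fibrils, lay between -0.17 and 0.10, with Dcn (decorin) at -0.12 ± 0.06 (adjusted p = 0.295).

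Among 12 collagen-cleaving proteases and their inhibitors, Timp3, a matrix-bound inhibitor of metalloproteinases, came nearest to the threshold. Its means were 1840 and 1446, at -0.35 ± 0.08 with no overlap (limma, adjusted p = 0.0557). Of 21 basement membrane partners, Itgb4, a hemidesmosomal integrin chain of basal keratinocytes, had means of 539 and 675, at 0.33 ± 0.08 with no overlap (adjusted p = 0.0657). Of 19 genes of elastic fibres and other dermal matrix, Tnc (tenascin C) lay at -0.23 ± 0.06 (adjusted p = 0.0899). Tnxb (tenascin X) was called without control replicate 2, at -0.46 (adjusted p = 0.0153). The 9 collagen receptors had a median of 0.03, with Lair1, an inhibitory receptor of immune cells that was not above the background, at the highest value of 0.21. The 13 genes of transforming growth factor beta signalling, a main inducer of collagen genes, had a median of -0.04, with Smad7, a feedback inhibitor, at -0.19 ± 0.06 (adjusted p = 0.12), the ligand gene Tgfb2 at -0.23 ± 0.08 (0.16) and the receptor gene Tgfbr2 at 0.18 ± 0.06 (0.136).

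**Figure D4:**
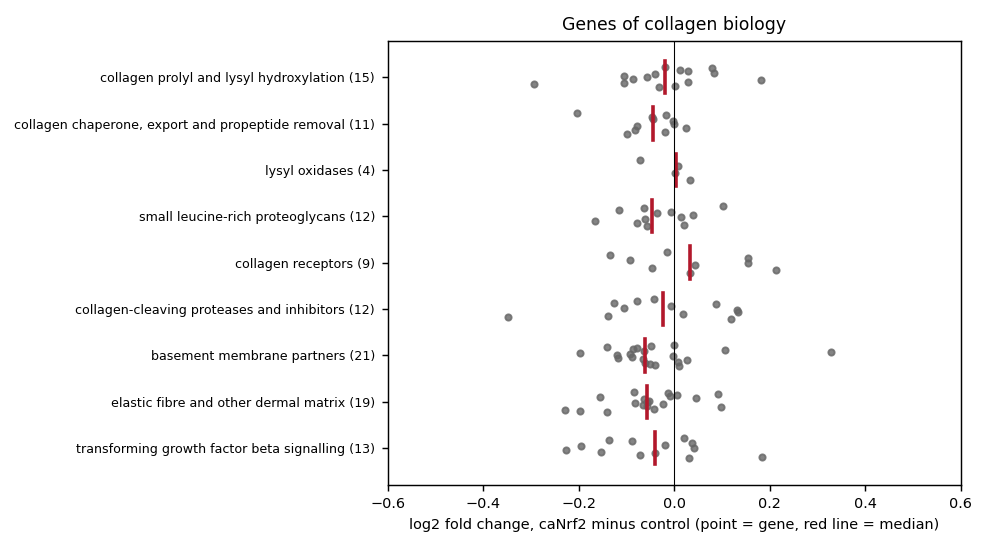
Log2 fold change (caNrf2 minus control) of each measured gene in 9 lists of collagen biology, with the list median as a red line and the number of genes in brackets. The medians lie between -0.06 and 0.03, and none of the 116 genes was called at an adjusted p under 0.05.

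In whole skin, fewer cells of a type and less RNA per cell cannot be told apart. Markers of dermal fibroblasts were not called (0 of 15 in limma, 0 at an unadjusted p under 0.05, median -0.06), and their summed intensity was 35952 to 37441 in control and 34221 to 36171 in caNrf2 skin. Markers of vessels, where type VIII collagen is known, gave 0 calls in limma and 2 genes at an unadjusted p under 0.05, Cldn5 (0.21) and Rgs5 (-0.18). The share over all genes was 20.4%. The 8 endothelial markers had a median of 0.06. They summed to 2206 to 2291 in control and 2371 to 2406 in caNrf2 skin, without overlap. Without Cldn5, left out after its values were seen, the sums overlapped, at 1610 to 1685 and 1669 to 1702. The 8 markers of pericytes and smooth muscle had a median of -0.06. They summed to 9007 to 9059 and 8709 to 8839, also without overlap. Without Rgs5, likewise left out, these sums overlapped too, at 7727 to 7919 and 7689 to 7745. Each gene left out had the largest shift of its list, which favours overlap, so these reduced sums decide nothing.

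Markers of the hair follicle had more negative than positive log2 fold changes. Both follicle lists were chosen after values were seen, so their counts describe these genes and do not test them. Of 17 markers of the dermal papilla and sheath, the mesenchyme of the follicle, 4 had an unadjusted p under 0.05, all with negative values. That count is near the share of 20.4% over all genes. Without overlap 5 were lower and 0 higher, where 13% of all genes were lower and 12.7% higher. The 1 call was Rspo2, an activator of Wnt signals, at -0.37 ± 0.07 (limma, adjusted p = 0.0282). It did not pass without caNrf2 replicate 2 (adjusted p = 0.0882), caNrf2 replicate 3 (0.0965), control replicate 1 (0.099) or control replicate 3 (0.0661). With the mean of all its probe sets it was at -0.12 (0.265). Sox2 lay at -0.28 ± 0.06 (0.0505), Fgf7 at -0.33 ± 0.08 (0.0509) and Hhip at -0.22 ± 0.07 (0.142). The list's median was -0.06, and it summed to 5029 to 5070 in control and 4814 to 5078 in caNrf2 skin. Of the 13 hair matrix and shaft genes, 8 had an unadjusted p under 0.05, against 20.4% of all genes, and 6 were lower without overlap and 0 higher. All 13 had negative log2 fold changes, from -0.28 to -0.06 with a median of -0.19. The 1 call was Shh, the follicle's hedgehog signal, at -0.28 ± 0.06 (limma, adjusted p = 0.0359), which ended on leaving out any array. This list summed to 25916 to 30749 in control and 24246 to 26003 in caNrf2 skin, with control replicate 3 at the lowest control value. The part of these cell types in the lower Col8a1, Col8a2 and Col11a1 was not tested.

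The other cell types of skin were measured too. Over all genes, 20.4% had an unadjusted p under 0.05 and 13% were lower without overlap. Skeletal muscle (0 of 10 called in limma, 1 at an unadjusted p under 0.05), bone (0 of 5, 0) and Schwann cell markers (0 of 4, 0) had medians between -0.07 and 0.01. Of 6 adipocyte genes, 1 had an unadjusted p under 0.05, Lep (leptin), which was lower at -0.58 ± 0.07 (limma, adjusted p = 0.000949). Of 8 immune genes, 2 had an unadjusted p under 0.05, with opposite signs. Cd207, the Langerhans cell lectin langerin, was higher at 0.36 ± 0.08 (limma, adjusted p = 0.036), and leaving out any array ended the call. Its means of 54.9 in control and 70.8 in caNrf2 skin lay around 61.6, the top of the Y-linked range. Ptprc lay at -0.24 ± 0.07 with no overlap (limma, adjusted p = 0.109). Of 7 keratinocyte genes, 1 had an unadjusted p under 0.05, Sfn (stratifin), which was higher at 0.35 ± 0.06 (limma, adjusted p = 0.0112). Without overlap 2 were higher, Sfn and Krt14, and 0 lower, where 12.7% of all genes were higher. Krt14 lay at 0.10 ± 0.05 (limma, adjusted p = 0.314). The 7 summed to 78240 to 78970 in control and 81294 to 81938 in caNrf2 skin, without overlap. Of 6 melanocyte genes, 5 had an unadjusted p under 0.05, 4 were lower without overlap and all had negative values, with a median of -0.18. They summed to 11162 to 11892 in control and 9662 to 10564 in caNrf2 skin. The 1 call among them was Mlana at -0.38 ± 0.09 (limma, adjusted p = 0.0463), which ended on leaving out 1 of 5 arrays. The part of these cell types in the collagen values was not tested either.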

How the data were processed

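The authors deposited probe set intensities on a linear scale, made with RMA per the submitters' processing notes, from 6 Affymetrix arrays (version not given in the sources used here). RMA includes quantile normalization across arrays, so a shift shared by most transcripts cannot be seen, and the number of arrays limits the precision. The upper quartile over probe sets with a single symbol lay between 411 and 413 on caNrf2 and between 420 and 430 on control arrays.

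Groups came from the sample titles. Of 45101 probe sets, 34945 had 1 gene symbol and 932 several. Symbols were updated through Entrez identifiers with RefSeq (GRCm38.p6). The brightest probe set by the mean over 6 arrays stood for a gene. Log2 intensities were fitted with limma 3.58.1 (R 4.3.3; lmFit, eBayes) over all 18193 genes, with 4 residual and 5.52 prior degrees of freedom, and Benjamini-Hochberg adjustment over all genes. A gene was called at an adjusted p under 0.05. Lists are described by counts and medians.

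The fit was tested on simulated data. The alternatives were a further quantile normalization, arrays centred on their median, log2(value + 16), an intensity trend with robust variances, array weights, a mean of at least 32, the mean of all probe sets of a gene, all probe sets tested apart, the replicate block, and leaving out each array. GC boxes and other motifs were searched in RefSeq promoter windows.

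The members and lists were chosen with earlier results of these data known, and the lists of dermal papilla and sheath and of hair matrix genes, and the interval counts, after values were seen. Named genes are the called members, the 6 largest changes above the Y-linked range, the 3 brightest of 3 classes, and of other lists the called genes or up to 2 of smallest p. Other members, and list members at a range's end, at an unadjusted p under 0.05 or called in an alternative, were named after their values were seen.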

Additional observations from a re-analysis of the deposited data

How the results depend on the processing

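The fit was repeated under 15 alternatives, 9 of processing and 6 that left out 1 array each. Col8a1, Col8a2 and Col11a1 kept their direction in all 15. The calls held in 12, 10 and 13 of them, at adjusted p up to 0.0643, 0.132 and 0.0614. Leaving out 1 array gave 1 to 2 collagens called lower and 0 to 1 called higher, and a fibrillar median from -0.059 to -0.028. Using the mean of all probe sets of a gene moved the median of all collagens to -0.023, that of the type VIII genes to -0.34 and Col26a1 to 0.079. With log2(value + 16) the type VIII median was -0.35, which understates changes of dim genes by construction. Of the 116 genes of the other lists of collagen biology, 3 were lower with an intensity trend and robust variances, and 1 was lower with log2(value + 16), with only genes of a mean of at least 32, or with the replicate number as a block (Timp3, adjusted p = 0.0452). Leaving out 1 array gave 0 to 1 lower. In these lists 1 gene, Itgb4, was higher with a further quantile normalization, log2(value + 16), an intensity trend, array weights or the mean of at least 32. The cause was not tested. Same-numbered arrays had correlations of deviations of 0.033, 0.13 and 0.094. caNrf2 replicates 2 and 3 correlated best with the control of the same number, and caNrf2 replicate 1 with control replicate 3 (0.070). These values do not settle whether the numbers mark pairs, and the main fit did not use them as pairs. With the replicate block the 3 collagens were still called (adjusted p of 0.0208, 0.0277 and 0.0472 for Col11a1, Col8a1 and Col8a2), and over all genes 353 were higher and 237 lower. Over all genes 253 called lower became 501 with an intensity trend and 72 to 196 on leaving out 1 array, and 412 called higher became 226 to 316. Genes near the Y-linked range have no reliable fold change.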
